A study of Mus musculus with 4 samples.

Results

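In all, 10 genes were examined here: 5 exchange factors that load RAS-family proteins with GTP (Rasgrf2, Rasgrp1, Rasgrp2, Rasgrp3 and Rasgrp4) and 5 GTPase activators that make them hydrolyse it (Rasal2, Rasa1, Rasa2, Rasa3 and Nf1). They were found by symbol, and all 10 matched 1 row each of the 55426 genes in the deposited tables. The family was chosen by the read counts of Rasgrf2 and Rasal2, which were almost without reads in the mutant libraries, so the values of these 2 genes are given as a description, with no test.

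RNA was taken from mouse haematopoietic stem and progenitor cells of lineage-negative bone marrow, transformed with an MLL-ENL fusion and kept in culture. The first group, MLL-ENL ∆YEATS, carries a fusion in which ENL is reduced to residues 372 to 559, and so lacks the YEATS domain that binds acylated histone tails. The second group, MLL-ENL, carries an MLL-ENL fusion for which the labels name no deletion. All 4 libraries, 2 per group, therefore come from fusion-transformed cells, and no untransformed cells were compared. Mouse strain, age, sex and the vector are not stated in the labels, nor are the ENL residues that the MLL-ENL group carries. According to the design text, libraries within a group are technical replicates. If each group is 1 line, genotype and line cannot be told apart, and p-values measure only the spread between libraries.

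RAS proteins are switches that signal when bound to GTP and are silent when bound to GDP. Exchange factors open them to GTP, and activators of their weak GTPase activity close them again, so the state of RAS follows the balance of both. In blood cells, growth factor receptors reach RAS mainly through SOS proteins and through the RASGRP family, whose members respond to diacylglycerol, calcium or both. Loss of the activator NF1 is a known cause of myeloid disease in humans.

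The libraries held between 27812855 and 28814798 expected counts. Levels are counts relative to library size (CPM), scaled between libraries by edgeR's TMM method, with SD over n = 2 libraries. Fold changes are log2, MLL-ENL ∆YEATS minus MLL-ENL, given with a standard error (SE). Calls needed an adjusted p under 0.05 in edgeR's quasi-likelihood test with Benjamini-Hochberg adjustment over 13245 tested genes. The MLL-ENL ∆YEATS pair was close (SD of the log2 ratio 0.176 over tested genes), and the MLL-ENL pair was further apart (0.386). All 4 blood cell markers (Ptprc, Spi1, Cd53, Laptm5) were abundant, at a summed 1495 and 1499 CPM with MLL-ENL ∆YEATS and 1402 and 1445 CPM with MLL-ENL. The 5 markers of granulocyte-monocyte progenitors summed to 3450 and 3468 CPM with MLL-ENL ∆YEATS, against 6969 and 5885 CPM with MLL-ENL. Erythroid and stromal markers summed to at most 1.34 and 0.635 CPM in any library. The part of these and of the other marker lists given below in the results was not tested.

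Rasgrf2 encodes an exchange factor for RAS and RAC that is best known from mouse brain, where calcium and calmodulin regulate it. It lies on chromosome 13, 91880400 to 92131656 (GRCm38, minus strand). It had 1 and 0 counts with MLL-ENL ∆YEATS, against 292 and 370 counts with MLL-ENL. On the scaled level this was 0.0341 and 0 CPM with MLL-ENL ∆YEATS, against 10.9 and 13.2 CPM with MLL-ENL. All reads but 1 thus came from the MLL-ENL libraries, where the gene was modestly expressed in both. In bulk RNA, fewer cells that express a gene and less RNA per cell cannot be told apart. The summed level was 700-fold lower with MLL-ENL ∆YEATS (MLL-ENL over MLL-ENL ∆YEATS, 95% interval of counting error 125 to 27674), and 354-fold lower without MLL-ENL ∆YEATS replicate 2, the library with no count. Of 4 neuronal markers 3 had any reads, and the list summed to 0 CPM in both MLL-ENL ∆YEATS libraries and to at most 0.107 CPM in an MLL-ENL library, and Snap25 was at 0 in all.

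Rasal2 encodes a RAS GTPase activator, described as a tumour suppressor in human breast cancer. It lies on chromosome 1, 157135182 to 157412595 (minus strand). It had 1 and 2 counts with MLL-ENL ∆YEATS, against 114 and 192 counts with MLL-ENL. This corresponds to 0.0341 and 0.0698 CPM with MLL-ENL ∆YEATS, against 4.26 and 6.83 CPM with MLL-ENL. The summed level was 108-fold lower with MLL-ENL ∆YEATS (interval 36.5 to 526). It was 79.9-fold lower without MLL-ENL ∆YEATS replicate 1 and 164-fold lower without replicate 2. Rasal2 had fewer counts than Rasgrf2 with MLL-ENL. In both genes the gap between groups is what the choice of the family rested on, and it was not tested. The intervals describe counting error in genes picked for this gap, and they are no test of it.

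The promoter windows of these 2 genes are shown because both genes had almost no reads in 1 group. RefSeq sequences (GRCm38.p6) run from 250 bases before to 50 bases after RefSeq's start of the gene, are written 5′ to 3′ along the gene's strand, and have each CG dinucleotide in capitals. The Rasgrf2 window is chr13:92131779-92132078 and the Rasal2 window chr1:157412546-157412845, both on the minus strand. The Rasgrf2 window lies upstream of the gene span given above, which ends at 92131656.
Rasgrf2: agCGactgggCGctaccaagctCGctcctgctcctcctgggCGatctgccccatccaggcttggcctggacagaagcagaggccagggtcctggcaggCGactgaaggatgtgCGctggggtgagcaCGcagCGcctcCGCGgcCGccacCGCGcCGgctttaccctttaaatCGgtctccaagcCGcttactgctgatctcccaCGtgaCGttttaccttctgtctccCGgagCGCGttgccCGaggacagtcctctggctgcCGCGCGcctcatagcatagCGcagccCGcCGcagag
Rasal2: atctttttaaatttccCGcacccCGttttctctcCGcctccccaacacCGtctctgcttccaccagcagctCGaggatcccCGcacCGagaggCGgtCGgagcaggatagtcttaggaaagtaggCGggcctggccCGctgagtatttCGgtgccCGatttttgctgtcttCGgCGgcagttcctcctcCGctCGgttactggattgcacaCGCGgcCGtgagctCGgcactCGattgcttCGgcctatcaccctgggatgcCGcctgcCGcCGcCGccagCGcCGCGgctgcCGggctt
The Rasgrf2 window held 28 CG dinucleotides and was 66.0% G or C, and the Rasal2 window held 31 and was 63.3% G or C. CG reads the same on both strands. Of the 32851 windows in the table, whose median was 7, 14.2% held at least as many as Rasgrf2 and 10.6% at least as many as Rasal2. CG-rich windows were shared by members that were expressed in both groups: Rasa1 and Nf1 each held 30, Rasa2 32, Rasa3 26 and the 2 windows of Rasgrp2 40 and 23. Rasgrp1, at 1 count in all, also held 26, while the 2 windows of Rasgrp3 held 5 and 9. No window was available for Rasgrp4. The CG counts of Rasgrf2 and Rasal2 thus lay among those of the members that kept their reads and had a window.

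The neighbourhoods of the 2 genes differed. Next to Rasgrf2, the mismatch repair gene Msh3 lay at 29.0 and 29.2 CPM with MLL-ENL ∆YEATS and at 26.4 and 33.8 CPM with MLL-ENL (log2 fold change -0.05 ± 0.15 SE, adjusted p = 0.849). Zcchc9 on the other side had a log2 fold change of 0.10 (adjusted p = 0.566). Ckmt2, the nearest protein-coding gene at 3515 bases, and Acot12 had no counts in any library, and Gm20379 had too few for the test. None of these neighbours of Rasgrf2 was called.

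Beside Rasal2, 2 of the genes that entered the test had no reads at all with MLL-ENL ∆YEATS. The gene 2810025M15Rik, annotated as a transcribed processed pseudogene, begins at 157412352, inside the start of Rasal2, and runs in the opposite direction to 157420236, so that it covers the promoter window printed above. It had 0 and 0 CPM with MLL-ENL ∆YEATS, against 5.00 and 2.56 CPM with MLL-ENL, at least 36.6-fold lower if 3 counts per library are taken as the floor (adjusted p = 0.00738). Cryzl2 (crystallin zeta like 2), 45982 bases past the start of Rasal2, had 0 and 0 CPM with MLL-ENL ∆YEATS, against 9.04 and 6.93 CPM with MLL-ENL, at least 77.2-fold lower (adjusted p = 0.00126). Both genes passed the filter on low counts through the MLL-ENL libraries alone, so they could only be called lower. Of all tested genes 9.84% were called lower.

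Levels of Rasal2, 2810025M15Rik and Cryzl2 were all lower with MLL-ENL ∆YEATS, but not all of their surroundings followed. Sec16b, the next gene, had 0 counts with MLL-ENL ∆YEATS and 1 and 2 counts with MLL-ENL, too few to compare. Ralgps2, which encodes an exchange factor for the RAS-related RAL proteins and lies 195556 bases from the other end of Rasal2, rose to 11.3 and 10.7 CPM with MLL-ENL ∆YEATS, against 4.26 and 5.26 CPM with MLL-ENL (log2 fold change 1.21 ± 0.17 SE, adjusted p = 0.00883). Tex35 and Brinp2 had no counts, and Angptl1 had 1. Since the strand setting of the counting is not given, reads from the stretch that Rasal2 shares with 2810025M15Rik cannot be told apart.

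**Figure D1:**
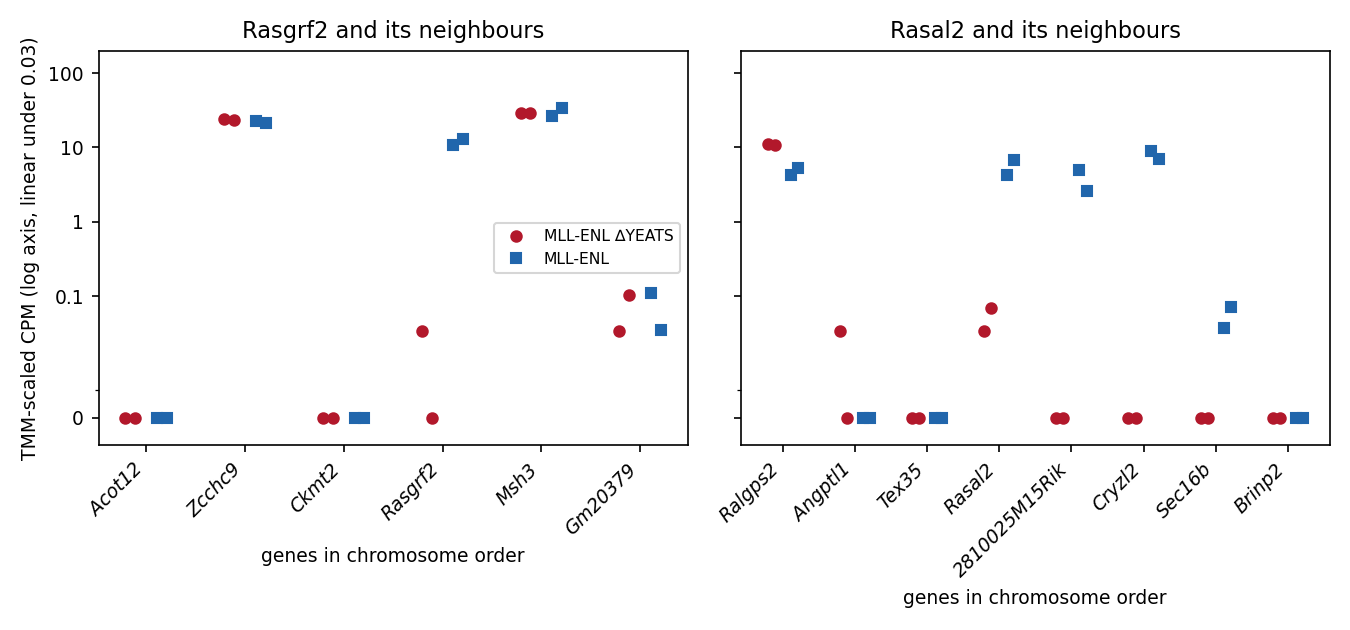
TMM-scaled CPM of Rasgrf2 (left) and Rasal2 (right) with protein-coding genes on either side and the overlapping 2810025M15Rik, in chromosome order, on a log axis that is linear under 0.03. Each point is a library, circles for MLL-ENL ∆YEATS and squares for MLL-ENL. No tested neighbour of Rasgrf2 shows a gap like its own, while 2810025M15Rik and Cryzl2 lie at 0 in both MLL-ENL ∆YEATS libraries along with the nearly absent Rasal2.

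By a fixed measure of likeness (Euclidean distance of log2(CPM + 0.5) over the 4 libraries), the genes most like Rasgrf2 were Rai14 (distance 0.16), B3galt1 (0.17), Stra6 (0.39), Aldh1a7 (0.51) and Hebp1 (0.54). Those most like Rasal2 were Vldlr (0.30), Crim1 (0.35), Abca1 (0.40), Stk39 (0.47) and Cd48 (0.49). B3galt1, a galactosyltransferase gene, had 0 and 0 CPM with MLL-ENL ∆YEATS, against 10.5 and 14.4 CPM with MLL-ENL. Vldlr, a lipoprotein receptor gene, had 0 and 0 CPM with MLL-ENL ∆YEATS, against 3.77 and 6.08 CPM with MLL-ENL. With 4 libraries in 2 groups, such likeness says that levels in both groups were close and no more. Of these 10 genes, Cd48 lies on the chromosome of Rasal2, and none lies on that of Rasgrf2.

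The other 8 genes of the family gave a different picture from Rasgrf2 and Rasal2. Of these 8, 7 had enough reads for the test, and 0 of the 7 were called by edgeR, where 16.9% of all tested genes were called (7.04% higher and 9.84% lower). At an unadjusted p under 0.05 the number was 1 (Rasa3), where 33.3% of all tested genes passed. DESeq2 called 0 of the 7 and 14.9% of all genes it tested, and limma on log2 FPKM called 0, with 11.1% and 11.4% of all genes at pseudocounts of 1 and 0.1. The number was also 0 with DESeq2's size factors (17% of all genes), library totals (15.5%), no filter (9.44%), a filter of 5 CPM (13.9%), a replicate block (23.7%) and the gene-length trend removed (21.8%). Without MLL-ENL ∆YEATS replicate 1 or 2 it was 0 as well, where 10.3% and 10.2% of all genes were called. Their median log2 fold change was -0.03, between -0.37 and 0.27, beside a median of -0.01 over all tested genes. A p over the threshold does not show that levels were equal, and 95% intervals are given for each gene.

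**Figure D2:**
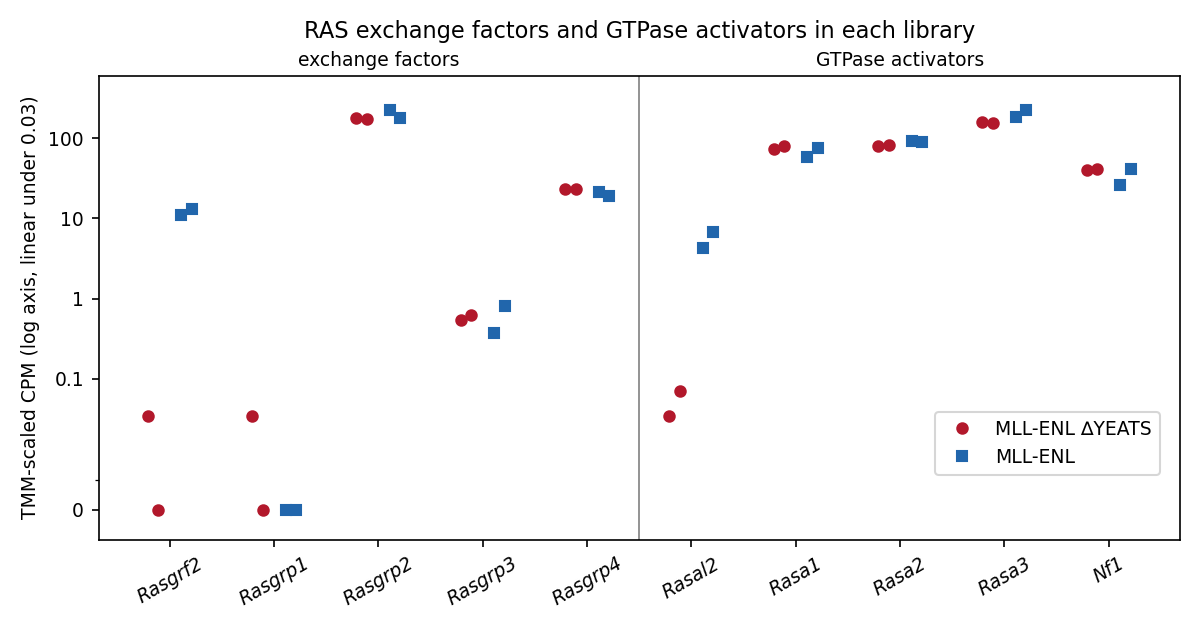
TMM-scaled CPM of the 5 exchange factors (left) and 5 GTPase activators (right) in each library, on a log axis that is linear under 0.03. Circles are MLL-ENL ∆YEATS libraries and squares MLL-ENL libraries. Rasgrf2 and Rasal2 are near 0 with MLL-ENL ∆YEATS and above 4 CPM with MLL-ENL, Rasgrp1 is near 0 everywhere, and the groups lie close together in the remaining 7 genes.

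Among exchange factors, Rasgrp2 was the most abundant. It encodes CalDAG-GEFI, which acts mainly on the RAS relative RAP1 and is known for its role in platelets and neutrophils. It lay at 176 and 172 CPM with MLL-ENL ∆YEATS and at 222 and 179 CPM with MLL-ENL. The groups did not overlap, but MLL-ENL replicate 2 was nearer to the MLL-ENL ∆YEATS libraries than to MLL-ENL replicate 1. The log2 fold change was -0.20 (95% interval -0.55 to 0.14, adjusted p = 0.36). The 5 megakaryocyte and platelet markers summed to 1.60 and 1.71 CPM with MLL-ENL ∆YEATS and 2.58 and 1.49 CPM with MLL-ENL.

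Rasgrp4, an exchange factor known from mast cells and myeloid leukaemia, lay at 23.5 and 23.3 CPM with MLL-ENL ∆YEATS and at 21.1 and 19.3 CPM with MLL-ENL. Both MLL-ENL ∆YEATS libraries were above both MLL-ENL libraries by a small margin. The log2 fold change was 0.21 (interval -0.08 to 0.50, adjusted p = 0.268). Of 5 mast cell markers, Cpa3, Fcer1a, Tpsb2 and Cma1 had no counts in any library, and Ms4a2 alone gave the summed 1.81 and 2.65 CPM with MLL-ENL ∆YEATS and 2.84 and 3.27 CPM with MLL-ENL.

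Rasgrp3, known from B cells, was scarce. It lay at 0.545 and 0.628 CPM with MLL-ENL ∆YEATS and at 0.373 and 0.818 CPM with MLL-ENL, on a total of 34 counts with MLL-ENL ∆YEATS and 33 with MLL-ENL. The MLL-ENL libraries enclosed the MLL-ENL ∆YEATS libraries, and the interval of the log2 fold change was wide (-0.03, interval -1.15 to 1.09, adjusted p = 0.97), so that a 2-fold change in either direction lay within it. Its sign depends on the scaling and turned positive with library totals (0.02). Rasgrp1, the main exchange factor of this family in T cells, had 1 count in MLL-ENL ∆YEATS replicate 1 and 0 in the other 3 libraries, was not tested, and allows no fold. The T cell markers Cd3e and Cd3g were at 0 in all libraries, and the 6 T cell markers summed to 0.886 and 0.907 CPM with MLL-ENL ∆YEATS and 3.81 and 3.41 CPM with MLL-ENL, nearly all of it Lck. The B cell markers Ms4a1 and Pax5 were at 0 in all libraries.

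Among GTPase activators, Rasa3 was the most abundant and came closest to a call. It encodes an activator that switches off both RAS and RAP1 and is known as the counterpart of RASGRP2 in mouse platelets. It lay at 161 and 155 CPM with MLL-ENL ∆YEATS and at 182 and 226 CPM with MLL-ENL. Both MLL-ENL libraries were higher than both MLL-ENL ∆YEATS libraries, but they also stood further from each other than MLL-ENL replicate 1 stood from the MLL-ENL ∆YEATS pair. The log2 fold change was -0.37 (interval -0.72 to -0.02, unadjusted p = 0.0415, adjusted p = 0.133), so edgeR's adjusted threshold was not passed. Groups that do not overlap were common in these data: this held for 4 of the 7 tested genes (Rasgrp2, Rasgrp4, Rasa2 and Rasa3) and for 64.3% of all tested genes.

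Rasa2, a related activator of the GAP1 family, lay at 80.8 and 82.7 CPM with MLL-ENL ∆YEATS and at 91.5 and 89.7 CPM with MLL-ENL. All 4 libraries were close, with the tightest interval of the family (log2 fold change -0.15, interval -0.41 to 0.11, adjusted p = 0.375). Rasa1, the p120 RAS GTPase activator that binds phosphorylated receptors, lay at 74.1 and 79.9 CPM with MLL-ENL ∆YEATS and at 58.7 and 75.5 CPM with MLL-ENL. MLL-ENL replicate 2 fell between the MLL-ENL ∆YEATS libraries, so that the groups overlapped (0.20, interval -0.19 to 0.59, adjusted p = 0.425).

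Nf1, the neurofibromin gene, lay at 40.2 and 41.4 CPM with MLL-ENL ∆YEATS and at 26.1 and 41.6 CPM with MLL-ENL. MLL-ENL replicate 2 was level with the MLL-ENL ∆YEATS pair, and MLL-ENL replicate 1 alone was low (log2 fold change 0.27, interval -0.31 to 0.85, adjusted p = 0.467). The small genes Evi2, Evi2a and Evi2b lie within Nf1 on the opposite strand. Evi2b was far more abundant than Nf1, at 173 and 170 CPM with MLL-ENL ∆YEATS and 85.8 and 153 CPM with MLL-ENL, and was low in the same library (adjusted p = 0.246). Ccnh overlaps part of Rasa1, and Fam98c part of Rasgrp4, each on the opposite strand. Reads of these overlaps, and of those within Nf1, cannot be assigned to a strand here.

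Calls among these 7 genes depended on which MLL-ENL library was included. Without MLL-ENL replicate 1, edgeR called 3 of the 7, Rasa3 (log2 fold change -0.52), Rasa2 (-0.14) and Rasgrp4 (0.28), while 54.7% of all tested genes were called. Without MLL-ENL replicate 2 it called 5, Nf1 (0.64), Rasa1 (0.39), Rasa2 (-0.16), Rasa3 (-0.20) and Rasgrp2 (-0.35), while 66.5% of all tested genes were called. In both cases only the MLL-ENL ∆YEATS pair gave a spread, and the lone MLL-ENL library was assumed to vary like it. Rasa2 and Rasa3 were called lower in both cases. The estimate for Nf1 was -0.03 without MLL-ENL replicate 1. The log2 ratio of MLL-ENL replicate 1 to 2 was -0.67 for Nf1, -0.36 for Rasa1 and -0.31 for Rasa3, and it was 0.03 for Rasa2, 0.13 for Rasgrp4 and 0.31 for Rasgrp2. It was -0.68 for Rasal2 and -0.27 for Rasgrf2.

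**Figure D3:**
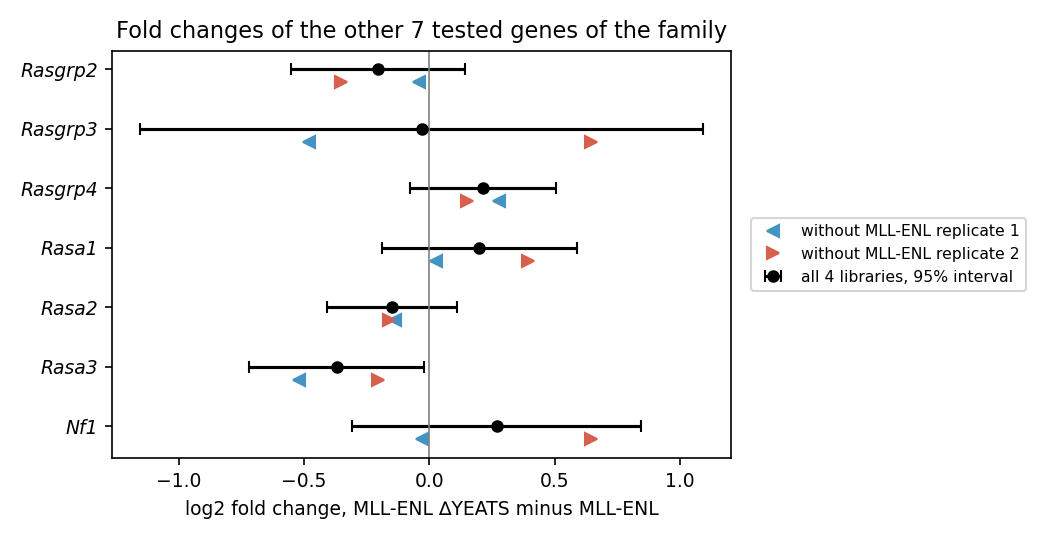
Log2 fold change of the 7 tested genes other than Rasgrf2 and Rasal2, MLL-ENL ∆YEATS minus MLL-ENL, with the 95% interval of edgeR's fit (black). Triangles give the estimate without MLL-ENL replicate 1 (pointing left) or replicate 2 (pointing right). The intervals cover 0 in 6 genes and end at -0.02 in Rasa3, and the triangles of Nf1 and Rasgrp3 lie furthest apart.

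Levels between genes were compared per length, in the authors' FPKM. In the MLL-ENL ∆YEATS libraries the order was Rasgrp2 (242 ± 4.38), Rasa3 (40.2 ± 1.06), Rasa1 (19.3 ± 1.01), Rasa2 (17.6 ± 0.127), Rasgrp4 (11.5 ± 0.707), Nf1 (5.62 ± 0.205) and Rasgrp3 (0.185 ± 0.0778) (SD, n = 2). The range of each of these 7 was separate from the next, and Rasal2, Rasgrf2 and Rasgrp1 followed at 0.01 or less. In the MLL-ENL libraries Rasgrp2 (251 ± 26.5) and Rasa3 (49.6 ± 9.55) led again. Rasa2 and Rasa1 overlapped there, as did Rasgrf2 (5.08 ± 2.81) and Nf1 (4.63 ± 1.34), and Rasal2 (0.68 ± 0.325) stood above Rasgrp3.

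Within their classes, the 2 nearly absent genes took small shares also with MLL-ENL. Rasgrf2 made up 0.00399% and 0% of the summed FPKM of the 5 exchange factors with MLL-ENL ∆YEATS, against 1.10% and 2.85% with MLL-ENL. Rasal2 made up 0.0121% in each MLL-ENL ∆YEATS library of the summed FPKM of the 5 activators, against 0.576% and 0.908% with MLL-ENL. Rasgrp2 alone made up 95.1% and 95.6% of the exchange factor sum with MLL-ENL ∆YEATS and 95.7% and 93.4% with MLL-ENL. These are shares of transcripts and say nothing of protein or activity.

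FPKM also depends on which transcripts the authors' RSEM estimate assigned the reads to. For Rasgrp2, count and FPKM imply an effective length of 751 and 715 bases with MLL-ENL ∆YEATS and 785 and 780 bases with MLL-ENL, although its longest coding transcript has 2296 bases. Per kilobase of the longest coding transcript, Rasgrp2 had 75.8 ± 1.15 CPM with MLL-ENL ∆YEATS and 87.3 ± 13.3 CPM with MLL-ENL, still above Rasa3 at 35.8 ± 0.913 CPM with MLL-ENL ∆YEATS and 46.3 ± 7.08 CPM with MLL-ENL. For Rasgrf2 the implied length was 3360 bases in MLL-ENL replicate 1 and 1882 bases in MLL-ENL replicate 2. Its FPKM therefore differed between these libraries (3.09 and 7.07) far more than its CPM (10.9 and 13.2). On the kilobase scale Rasgrf2 lay below Nf1 with MLL-ENL (2.08 ± 0.275 against 2.84 ± 0.922 CPM), the reverse of their FPKM order.

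The wider RAS pathway was read from lists of 72 other genes, drawn up with earlier results of these data known. Of these, 68 were tested, 10 rose and 10 fell with MLL-ENL ∆YEATS, and 48 were not called. That is 29.4% called, where 16.9% of all tested genes were called. By list the share was 50% of other exchange factors, 60% of other activators, 33.3% of SPRED genes and 33.3% of RAS GTPases. It was 25% of processing genes, 36.4% of adaptors, 22.2% of diacylglycerol genes and 18.2% of effectors. These lists held between 3 and 22 tested genes. The median log2 fold change was 0.05, against -0.01 over all tested genes. In fits without 1 MLL-ENL ∆YEATS library, only the MLL-ENL pair, which was further apart, gave a spread. A call that ended there need not mean that the fold change moved. Without MLL-ENL ∆YEATS replicate 1 or 2 the number called was 12 and 12, where 10.3% and 10.2% of all tested genes were called. Without MLL-ENL replicate 1 or 2 it was 47 and 53, where 54.7% and 66.5% of all tested genes were called.

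**Figure D4:**
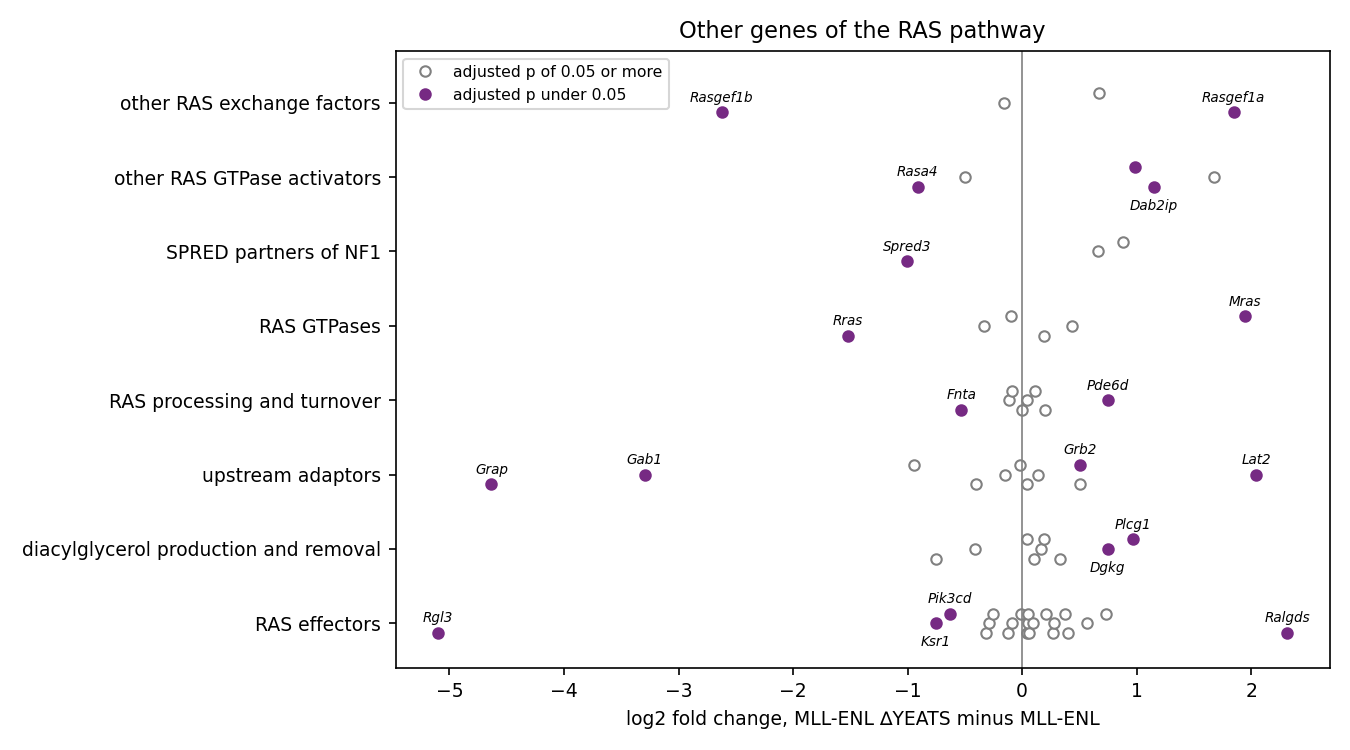
Log2 fold change (MLL-ENL ∆YEATS minus MLL-ENL) of each of the 68 tested genes of the wider RAS pathway, by list, from edgeR's fit. Filled points are the 20 genes with an adjusted p under 0.05, with names for those described in the text, and open points the other 48. Calls fall on both sides of 0 in each list except the SPRED and diacylglycerol lists. Of tested effectors 18.2% were called, and of all tested genes 16.9%.

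Of 4 tested exchange factor genes outside the family, 1 rose and 1 fell. The most abundant were Sos1 and Sos2, the general exchange factors that GRB2 brings to receptors. Sos1 lay at 64.8 and 67.9 CPM with MLL-ENL ∆YEATS and at 31.3 and 51.9 CPM with MLL-ENL, and was not called by edgeR (log2 fold change 0.67 ± 0.25 SE, adjusted p = 0.125), but was by DESeq2 (adjusted p = 0.0284). Leaving out MLL-ENL replicate 1 gave 0.35 and leaving out replicate 2 gave 1.09. Sos1 was called by edgeR with a replicate block (adjusted p = 0.00113). It was not called by limma (adjusted p = 0.179 and 0.178 at pseudocounts of 1 and 0.1). Sos2 had a log2 fold change of -0.16 (adjusted p = 0.506). Rasgef1b, whose protein acts on the RAS relative RAP2 in humans, fell to 1.33 and 0.942 CPM with MLL-ENL ∆YEATS, against 7.58 and 6.47 CPM with MLL-ENL (-2.62 ± 0.24 SE, adjusted p = 0.00229). Rasgef1a rose on few reads (0.647 and 1.08 CPM with MLL-ENL ∆YEATS against 0.224 and 0.249 CPM with MLL-ENL, adjusted p = 0.0431), a call that ended without MLL-ENL ∆YEATS replicate 2 (0.343), with DESeq2 (0.148) and with limma. Rasgrf1, the closest relative of Rasgrf2, had no counts in any library, and Rasgef1c had 3 or fewer.

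Among 5 further activators, 2 rose and 1 fell. Dab2ip, a relative of Rasal2, rose to 12.6 and 11.4 CPM with MLL-ENL ∆YEATS, against 4.15 and 6.69 CPM with MLL-ENL (log2 fold change 1.15 ± 0.25 SE, adjusted p = 0.0334). It was thus higher with MLL-ENL ∆YEATS, where Rasal2 was lower. The call ended with limma on log2 FPKM at a pseudocount of 0.1 (adjusted p = 0.052). Rasa4, a calcium-responsive activator, fell (-0.91, adjusted p = 0.0327), a call that ended without MLL-ENL ∆YEATS replicate 1 or 2 (0.284 and 0.127), with DESeq2 (0.0601) and with limma.

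SPRED proteins bring NF1 to the membrane, and of their 3 genes 0 rose and 1 fell. Spred3 fell (log2 fold change -1.0, adjusted p = 0.0372), at low levels of at most 2.91 CPM, and the call ended without MLL-ENL ∆YEATS replicate 1 or 2 (0.341 and 0.163), with DESeq2 (0.131) and with limma. The far more abundant Spred1 and Spred2 had log2 fold changes of 0.66 and 0.88 and were not called by edgeR (adjusted p = 0.0592 and 0.154), but were by DESeq2 (0.00861 and 0.0152). Both were lower in MLL-ENL replicate 1 than in MLL-ENL replicate 2, by 0.46 and 1.13 on the log2 scale. Leaving out MLL-ENL replicate 1 gave log2 fold changes of 0.45 for Spred1 and 0.42 for Spred2, and leaving out replicate 2 gave 0.91 and 1.55. Both genes were called by edgeR with a replicate block (adjusted p = 0.00221 and 4.21e-06). Neither was called by limma at pseudocounts of 1 and 0.1 (adjusted p = 0.108 and 0.103 for Spred1, 0.179 and 0.18 for Spred2).

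Of 6 tested RAS GTPase genes 1 rose and 1 fell. Hras lay at 50.8 and 51.5 CPM with MLL-ENL ∆YEATS and at 49.0 and 40.5 CPM with MLL-ENL (log2 fold change 0.19, adjusted p = 0.375). Nras lay at 93.7 and 96.8 CPM with MLL-ENL ∆YEATS and at 112 and 92.6 CPM with MLL-ENL (-0.10, adjusted p = 0.639). Scarcer relatives moved in opposite directions. Rras fell to 1.19 and 1.33 CPM with MLL-ENL ∆YEATS, against 3.62 and 3.63 CPM with MLL-ENL (adjusted p = 0.0083), and Mras rose to 1.16 and 1.12 CPM with MLL-ENL ∆YEATS, against 0.299 and 0.284 CPM with MLL-ENL (adjusted p = 0.0128; 0.0628 with DESeq2, and not called with limma). Of 8 tested genes for RAS processing, 1 rose and 1 fell. Pde6d, which carries farnesylated RAS through the cytosol, rose (0.75, adjusted p = 0.0228), and Fnta, a subunit of farnesyltransferase, fell (-0.53, adjusted p = 0.0284). Without MLL-ENL ∆YEATS replicate 1 or 2 neither was called (0.0908 and 0.167 for Pde6d, 0.453 and 0.486 for Fnta), and Fnta was not called with limma.

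Adaptors between receptors and RAS held large changes in both directions, with 2 of 11 tested genes up and 2 down. Grap, a relative of GRB2, fell to 0.238 and 0.489 CPM with MLL-ENL ∆YEATS, against 10.05 and 8.14 CPM with MLL-ENL (log2 fold change -4.63 ± 0.33 SE, adjusted p = 0.00106). Its log2 fold change was -4.21 without MLL-ENL ∆YEATS replicate 1 and -5.23 without replicate 2. Gab1, a docking protein, fell on few reads to 0.17 and 0.0349 CPM with MLL-ENL ∆YEATS, against 0.784 and 1.32 CPM with MLL-ENL (adjusted p = 0.023), with a log2 fold change of -3.29 that was -4.75 and -2.60 without MLL-ENL ∆YEATS replicate 1 or 2, and it was not called with limma. Lat2, an adaptor of myeloid and mast cells, rose to 13.6 and 13.9 CPM with MLL-ENL ∆YEATS, against 3.96 and 2.7 CPM with MLL-ENL (2.04 ± 0.21 SE, adjusted p = 0.00339). Grb2 itself rose to 217 and 213 CPM with MLL-ENL ∆YEATS, against 149 and 155 CPM with MLL-ENL (0.50 ± 0.10 SE, adjusted p = 0.0279). This call ended without MLL-ENL ∆YEATS replicate 1 or 2, although the log2 fold change was then 0.48 and 0.51.

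Diacylglycerol, which recruits some of the RASGRP proteins, is made by PLCγ enzymes and removed by diacylglycerol kinases. Of 9 tested genes 2 rose and 0 fell. Plcg1 rose to 21.1 and 21 CPM with MLL-ENL ∆YEATS, against 12.2 and 9.28 CPM with MLL-ENL (log2 fold change 0.97 ± 0.17 SE, adjusted p = 0.0166), while Plcg2, the main form in myeloid cells, was not called (0.17, adjusted p = 0.373). The kinase gene Dgkg rose (0.75, adjusted p = 0.0394), and this call ended without MLL-ENL ∆YEATS replicate 1 or 2 (0.202 and 0.0914), with library totals (0.0522), with a filter of 5 CPM (0.0518) and with limma.

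Of 22 tested RAS effector genes 18.2% were called, near the 16.9% of all tested genes. The 18 that were not called include the kinase gene Mapk3 (log2 fold change 0.06, adjusted p = 0.756). Of the 4 called, 1 rose and 3 fell. Ralgds, an exchange factor for RAL that active RAS binds directly, rose to 14.4 and 12.9 CPM with MLL-ENL ∆YEATS, against 2.20 and 3.27 CPM with MLL-ENL (2.31 ± 0.22 SE, adjusted p = 0.00264). Rgl3, of the same family, was 38.6-fold lower with MLL-ENL ∆YEATS (interval of counting error 10.3 to 325), on 2 counts with MLL-ENL ∆YEATS against 73 counts with MLL-ENL (adjusted p = 0.00191). Rgl1 and Rgl2, also of this family, were not called by edgeR (log2 fold changes 0.21 and 0.27, adjusted p = 0.696 and 0.143), and Rgl2 was called by limma at both pseudocounts (0.0379 and 0.0382). The kinase scaffold Ksr1 and Pik3cd, a catalytic subunit of PI3-kinase in white blood cells, fell by 0.75 and 0.63 on the log2 scale (adjusted p = 0.0134 and 0.0153). Without MLL-ENL ∆YEATS replicate 1 or 2 neither was called (0.153 and 0.141 for Ksr1, 0.366 and 0.326 for Pik3cd), and Ksr1 was not called with limma.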

How the data were processed

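Poly(A)-selected RNA was sequenced from 4 libraries. Per the submitters' processing notes, reads were processed with RSEM 1.3.3, STAR 2.7.8a, FastQC 0.11.8 and cutadapt 2.3 on build GRCm38. Settings, annotation release and strand setting are not given in the sources used. The authors deposited expected counts per gene (RSEM estimates, whole numbers as deposited) and FPKM, scaled by the authors for length and library size. Positions, transcripts and overlaps came from GENCODE mouse release M21, which matched 55154 identifiers.

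Counts were filtered with filterByExpr, scaled by TMM (factors between 0.953 and 1.02) and tested with edgeR 4.0.16 in R 4.3.3 (glmQLFit with legacy set to true, glmQLFTest, Benjamini-Hochberg adjustment). This procedure was also run on simulated data with the same spread in both groups. That run does not cover groups of unequal spread, as in these libraries. The SE is the log2 fold change divided by the square root of F, with 2 residual and 3.41 prior degrees of freedom. Ratios on few counts have exact Clopper-Pearson intervals at 95%, which cover counting error only. At these depths 3 counts correspond to between 0.102 and 0.112 CPM. A chi-square comparison found more than sampling noise within both pairs (1.99 per degree of freedom in MLL-ENL ∆YEATS and 89.8 in MLL-ENL). Each library was entered as a replicate, although the design text calls libraries within a group technical replicates. The chi-square comparison cannot show that they are independent, and p-values measure only the spread between libraries.

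Members and lists were chosen with earlier results of these data known. The text names all 10 members, every called gene of the wider lists, 3 protein-coding neighbours on each side of Rasgrf2 and Rasal2, overlapping genes of at least 1 CPM, and the 5 genes nearest in level to each. Sos1, Sos2, Spred1, Spred2, Plcg2, Hras, Nras, Rgl1, Rgl2 and Mapk3 were named in addition, after their values were seen. Alternatives were other scalings, filters, a replicate block, each library left out, DESeq2 1.42.0 and limma 3.58.1 on log2 FPKM with pseudocounts of 1 and 0.1. Removal of a gene-length trend (lowess span 0.3) was added after the data were seen. A few genes that this rule takes, or that stand in the marker lists, are not reported here by name.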

Additional observations from a re-analysis of the deposited data

How the results depend on the processing

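The number of the other family members called was 0 in each alternative except those that left out an MLL-ENL library, with a range of 0 to 5 over libraries left out. The number of wider pathway genes called (20) was 12 with a filter of 5 CPM, 12 with limma at a pseudocount of 1, 12 at 0.1, and 12 to 53 over libraries left out. With the filter of 5 CPM only 13 of these 20 genes were tested, and 12 of the 13 were still called. In that setting 13.9% of all tested genes were called. With limma 11.1% and 11.4% of all tested genes were called at pseudocounts of 1 and 0.1. Of the 20 genes, 7 (Rasgef1b, Rras, Grap, Lat2, Plcg1, Ralgds and Rgl3) were called in every alternative that tested them. The log2 fold change of Rasgrp3 changed sign with library totals (0.02), a replicate block (0.02) and limma (0.06 and 0.29), and ranged from -0.48 to 0.64 over libraries left out. That of Nf1 ranged from -0.03 to 0.64 over libraries left out, and that of Rasa2 was 0.00 with limma at both pseudocounts. Over libraries left out the log2 fold change ranged from -0.22 to 0.14 for Msh3, from -0.31 to 0.02 for Sos2, from -0.23 to 0.04 for Nras, from -0.05 to 0.53 for Rgl1 and from 0.00 to 0.12 for Mapk3. With limma that of Nras was 0.24 at both pseudocounts. The causes were not tested. The calls of Ralgps2, Cryzl2 and 2810025M15Rik held in every alternative that tested them. With the gene-length trend removed, a choice made after the data were seen, 0 members and 28 wider pathway genes were called. In that setting 21.8% of all tested genes were called. Libraries share only a replicate number, and the deviations of libraries numbered 1 from their group means had a correlation of -0.0677 across genes. With a replicate block 0 members and 28 wider pathway genes were called, and 3133 genes in all against 2235 (23.7% against 16.9%). The ratio of Rasgrf2 ranged from 354 to 763 and that of Rasal2 from 79.9 to 164 over libraries left out. No ratio was computed for Rasgrf2 without MLL-ENL ∆YEATS replicate 1, which leaves no counts in that group. At 1 count in all, Rasgrp1 could not be compared at this depth.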
